A study of Mus musculus with 6 samples.

Results

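Hepatic stellate cell and myofibroblast markers were followed as 10 genes chosen by symbol: Pdgfrb, Pdgfra, Des, Lrat, Reln, Cygb, Hgf, Acta2, Tagln and Ngfr. All 10 symbols matched 1 Ensembl gene each among the 56847 genes of the deposited tables. Mouse liver was sequenced as 6 libraries, 3 after feeding with normal diet and 3 after feeding with CDAHFD, a high-fat diet that lacks choline, has a defined amino acid content and is used to bring on steatohepatitis with fibrosis in rodents. The labels give no strain, sex, age or weeks of feeding, and no genetic change in either group. Whether the 6 livers were those of 6 animals is not stated either, and p-values measure only the spread between these samples, which may be technical. The study's design text gives lipid metabolism and mitochondrial function as its question, and stellate cells are not named in it.

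Stellate cells lie between hepatocytes and sinusoidal endothelium and, at rest, store retinyl esters in lipid droplets. In chronic injury they can turn into contractile, matrix-producing myofibroblasts, under platelet-derived growth factor and transforming growth factor beta among other signals. Lrat, Reln, Cygb and Hgf were taken as genes of resting cells, without a check that each is limited to that state. Acta2 and Tagln, genes of contractile proteins, were taken for activated cells. Pdgfrb, Pdgfra and Des were taken as more general markers of the lineage. Ngfr, the low-affinity neurotrophin receptor, has been used as a marker of both states and was kept outside either set.

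Promoter sequences of Acta2 and Reln are shown as an activation and a quiescence marker whose proximal promoters differ in composition. They are RefSeq windows of build GRCm38.p6, from 250 bases before to 50 after the start, given 5′ to 3′ on the gene's strand (Acta2 at chr19:34255324-34255623 and Reln at chr5:22344656-22344955, both on the minus strand). In Acta2 the capitals mark matches to the CArG box, the element bound by serum response factor in contractile genes, with 1 C or G allowed in its A/T core. In Reln they mark GGGCGG, the GC box bound by Sp-family factors.
Acta2: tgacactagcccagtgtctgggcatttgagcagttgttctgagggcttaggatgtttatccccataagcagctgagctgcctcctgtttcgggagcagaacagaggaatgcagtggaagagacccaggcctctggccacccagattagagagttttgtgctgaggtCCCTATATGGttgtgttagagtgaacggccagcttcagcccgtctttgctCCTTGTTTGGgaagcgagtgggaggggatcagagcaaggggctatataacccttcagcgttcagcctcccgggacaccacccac
Reln: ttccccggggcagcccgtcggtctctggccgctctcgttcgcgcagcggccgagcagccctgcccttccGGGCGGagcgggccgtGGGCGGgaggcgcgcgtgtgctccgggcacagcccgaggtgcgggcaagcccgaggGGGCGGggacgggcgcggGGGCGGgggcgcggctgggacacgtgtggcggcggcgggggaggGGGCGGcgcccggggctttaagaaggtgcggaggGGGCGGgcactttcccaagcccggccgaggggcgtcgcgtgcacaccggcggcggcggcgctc

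The Acta2 window held CCCTATATGG beginning 84 bases before the start and CCTTGTTTGG beginning 34 bases before it. Such a match, searched on both strands, was present in 8.5% of the 32851 promoter windows of this length, and the CArG box without the allowance, absent from the Acta2 window, in 1.63%. The Reln window held 6 GGGCGG matches, a sequence found on either strand in 35.7% of windows. Windows were read for 7 members. Among the others of these, Lrat had 1 CArG match with the allowance, beginning 223 bases before the start, Des and Lrat each had 2 GGGCGG matches and Ngfr had 4. TATAAA and GTCTAGAC, a SMAD palindrome, were as exact letters in no member window (13.6% and 0.213% of all windows). The Acta2 window held the near form tatataa shortly after the stated start, which the exact search did not match. Distances here are from the RefSeq start, which was not checked. GGAATG, a TEAD-type sequence, was in those of Acta2 and Lrat (14.7% of all), and CAGACA, a SMAD-type sequence, in those of Acta2 and Des (21.0% of all). These matches are letters only, and binding was not measured.

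The general stellate markers, the quiescence markers, Ngfr and, of the activation markers, Acta2 were higher in CDAHFD livers, and no tested marker was lower. Tagln, the other activation marker, had too few counts to be tested. The highest rises were in Pdgfrb (5.26-fold), Cygb (5.06-fold) and Acta2 (4.59-fold). Of the 4 quiescence genes 3 rose less, Lrat 2.13-fold, Reln 1.85-fold and Hgf 1.55-fold. Of the 10 members 9 had enough counts to be tested, each with at least 28 counts in every normal diet library, and all 9 were called higher by edgeR's quasi-likelihood test (adjusted p under 0.05 over 14215 genes, 3 libraries per diet). Over all genes tested, 28.5% were called higher and 23.5% lower (52.1% in either direction). The 2 diets did not overlap in CPM for any of the 9, all higher on CDAHFD, against 32.2% of all genes higher and 28.4% lower without overlap. The median log2 change of the 9 was 1.36, beside 0.01 for all genes tested. In bulk tissue, more cells of a type and more RNA per cell cannot be told apart.

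**Figure D1:**
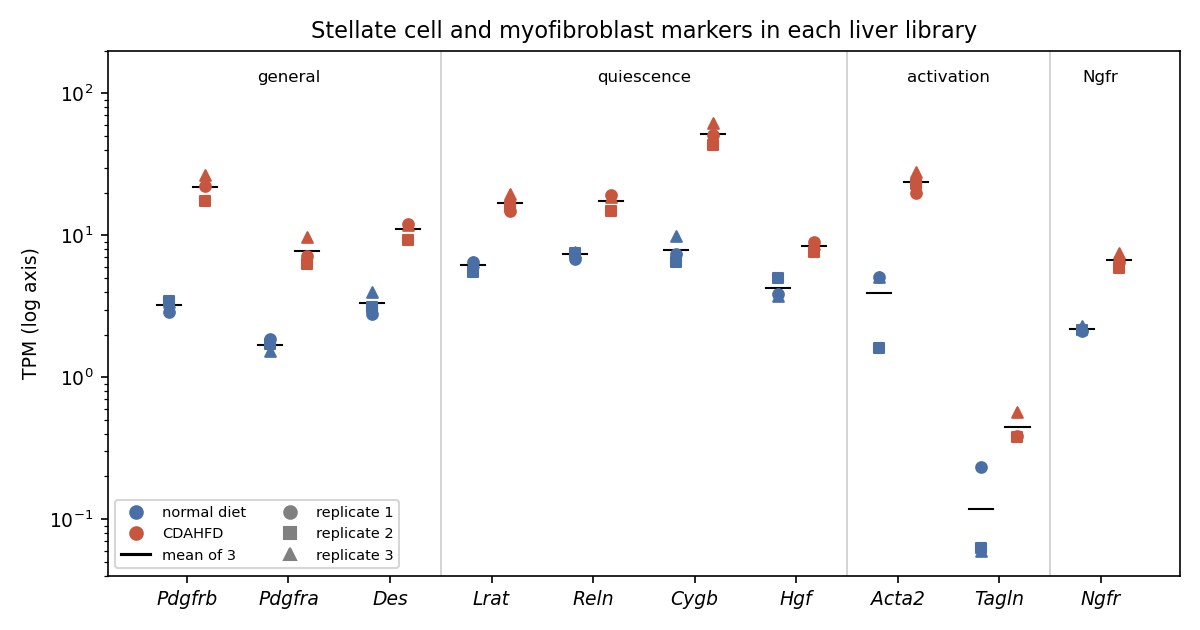
TPM (transcript abundance scaled for gene length and library, log axis) of the 10 markers in each library, normal diet in blue and CDAHFD in red, with the replicate number as the symbol shape and the mean of 3 libraries as a bar. Every marker's CDAHFD points lie above its normal diet points, and Tagln stays under 1 TPM in all 6 libraries.

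The levels themselves, compared between genes as TPM because that unit accounts for gene length, were low in liver as a whole. Among normal diet libraries Cygb (7.92 ± 1.74 TPM, SD, n = 3) and Reln (7.35 ± 0.458) stood first and overlapped. They were followed by Lrat (6.14 ± 0.551) and Hgf (4.23 ± 0.705), then Acta2 (3.92 ± 2.01), Des (3.32 ± 0.63) and Pdgfrb (3.25 ± 0.31), a run from Hgf to Pdgfrb in which each neighbour overlapped the next. Ngfr (2.18 ± 0.096), Pdgfra (1.7 ± 0.153) and Tagln (0.118 ± 0.099) came last, without overlap between neighbours. With CDAHFD feeding Cygb was first at 52.1 ± 9.55 TPM, clear of the rest. Acta2 (23.6 ± 4.19) and Pdgfrb (22.1 ± 4.51) came next, above Reln, Lrat and Hgf which had preceded them on normal diet, although Acta2, Pdgfrb, Reln (17.5 ± 2.29) and Lrat (16.9 ± 2.48) each overlapped the next. Des (11.1 ± 1.59), Hgf (8.45 ± 0.746), Pdgfra (7.76 ± 1.81) and Ngfr (6.67 ± 0.834) came after them, with overlap from Hgf to Ngfr, and Tagln was last at 0.443 ± 0.105. The 10 genes together made up 36.7 to 44.2 TPM on normal diet and 144 to 193 TPM on CDAHFD.

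Changes between diets were computed from counts, and the values below are CPM, a gene's counts relative to the library total, with totals scaled by TMM, a trimmed-mean scaling. Pdgfrb (ENSMUSG00000024620), the receptor for PDGF-BB that drives stellate cell proliferation and migration, stood at 6.73, 7.35 and 7.95 CPM in normal diet libraries 1 to 3 and at 38.8, 31.7 and 45.3 CPM in CDAHFD libraries 1 to 3. The lowest CDAHFD library was 3.99 times the highest normal diet library. The log2 change was 2.39 ± 0.15 (SE, edgeR adjusted p = 3.83e-07), above that of 94.4% of the genes tested.

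Pdgfra (ENSMUSG00000029231), the sister receptor that also binds PDGF-AA and PDGF-CC, was counted at 7.86, 6.76 and 6.55 CPM on normal diet, against 23.0, 20.9 and 30.6 CPM on CDAHFD. CDAHFD library 3 was the highest for both receptors. Pdgfra rose by 1.81 ± 0.16 (edgeR adjusted p = 5.02e-06). Des (ENSMUSG00000026208), the intermediate filament desmin of stellate and muscle cells, was at 4.47, 4.61 and 6.4 CPM against 14.5, 11.5 and 13.9 CPM. Its groups did not overlap and its rise was the smallest of the general markers, 1.36 ± 0.17 (edgeR adjusted p = 7.12e-05). Skeletal muscle also makes desmin. Of its 5 markers, Acta1 had no count in any library, Ckm had 1 count in 1 library, and 4 had at most 3 counts in any library. Mylpf, named after its values were seen, had 10 to 21 counts per library (1.11 to 2.12 TPM on normal diet and 1.65 to 2.14 TPM on CDAHFD) and did not pass (-0.15 ± 0.35).

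Among the quiescence genes, Cygb was the one that kept pace with Pdgfrb. Cygb (ENSMUSG00000020810), which encodes cytoglobin, an oxygen-binding globin of stellate cells, was at 7.32, 5.93 and 9.75 CPM on normal diet, against 37.9, 33.3 and 45.2 CPM on CDAHFD, a change of 2.34 ± 0.18 (edgeR adjusted p = 1.67e-06). Every CDAHFD library was at least 3.42 times the highest normal diet library. The gene Prcd overlaps 8.6% of the annotated exon bases of Cygb on the opposite strand, and Prcd itself was counted no more than 5 times in a library.

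Lrat (ENSMUSG00000028003), lecithin-retinol acyltransferase, makes the retinyl esters that resting stellate cells store. It was at 14.7, 11.5 and 14.6 CPM on normal diet, against 25.4, 28.6 and 32.9 CPM on CDAHFD. The groups were clear of each other, and the change was 1.09 ± 0.14 (edgeR adjusted p = 7.8e-05). Reln (ENSMUSG00000042453), the secreted glycoprotein reelin, had the most counts of the 10 genes, 1401 to 1545 per normal diet library and 3283 to 3580 per CDAHFD library. In CPM it went from 68.8, 69.9 and 77.2 to 145, 117 and 137. Its change was 0.89 ± 0.11 (edgeR adjusted p = 6.58e-05).

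Hgf (ENSMUSG00000028864), hepatocyte growth factor, which stellate cells secrete for hepatocytes, changed least. It stood at 11.9, 14.2 and 11.4 CPM against 20.6, 18.1 and 19.6 CPM. The lowest CDAHFD library was only 1.28 times normal diet library 2, the highest of its group, and the log2 change was 0.64 ± 0.13 (edgeR adjusted p = 0.00162). That value lay at the upper quartile of all genes tested, 0.64.

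**Figure D2:**
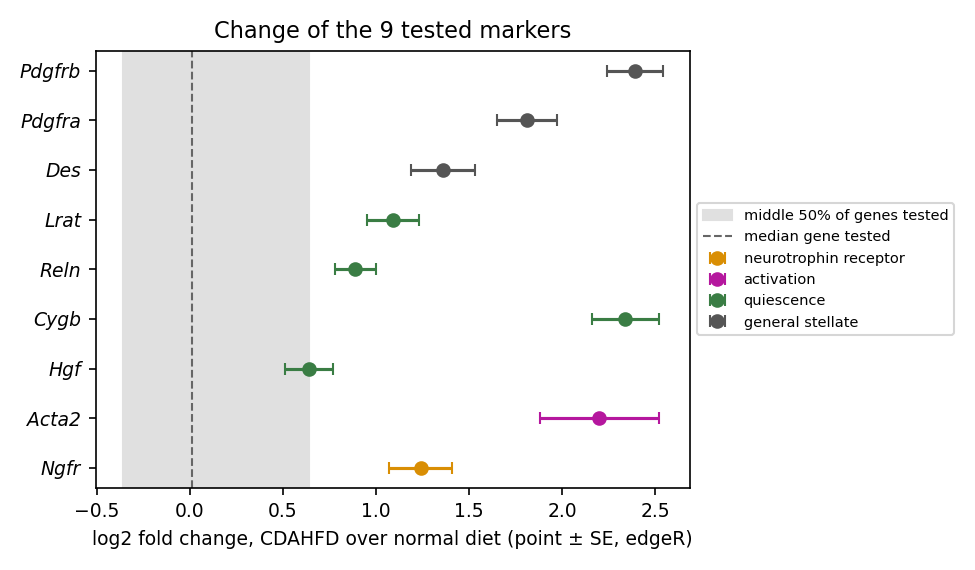
Log2 fold change of CDAHFD over normal diet for the 9 tested markers (points, with bars of ± 1 SE from edgeR), coloured by role, beside the median of all genes tested (dashed line, 0.01) and their middle 50% (grey band, -0.36 to 0.64). Pdgfrb, Cygb and Acta2 lie furthest right and Hgf lies at the edge of the band.

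Acta2 (ENSMUSG00000035783), smooth muscle alpha-actin, the usual protein marker of myofibroblasts, was the activation gene that could be tested. It was at 4.71, 1.37 and 4.75 CPM on normal diet, against 13.8, 16.6 and 19.3 CPM on CDAHFD. Normal diet library 2, with 28 counts, was far under the other 2, with 96 and 95. The change was 2.20 ± 0.32 (edgeR adjusted p = 0.000187) and 1.80 without that library. The same library was also low in Myh11, the smooth muscle myosin heavy chain, with 48 counts against 115 and 108. Other genes, named after their values were seen, went both ways in it. The cholangiocyte gene Krt19 had 5 counts against 22 and 29, and the portal fibroblast gene Thy1 21 against 42 and 40. The smooth muscle gene Smtn was highest there, with 100 against 80 and 83. The part of vessel wall muscle in the Acta2 difference was not tested. The counts of actin genes of the same family may share reads under rules that are not given.

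Tagln (ENSMUSG00000032085), transgelin or SM22-alpha, an actin-binding protein that usually accompanies smooth muscle actin, was nearly uncounted. Its reads numbered 4, 1 and 1 on normal diet, against 6, 7 and 9 on CDAHFD, 28 in all, too few for the test. The CDAHFD libraries were each above every normal diet library, and the ratio of the summed counts, scaled by library, was 2.85 with a 95% exact interval of 1.12 to 8.58 that covers counting error only. Without a filter on low counts edgeR gave 1.46 ± 0.81 (adjusted p = 0.183). In the GRCm38 annotation at hand, 67.9% of the exon bases of Tagln also lie in exons of genes on the opposite strand, 62.4% in the antisense gene Gm48529 (12 to 21 counts per library) and 5.4% in Pcsk7 (784 to 919 counts per library). The other 9 members shared at most 8.6% of their exon bases. Whether reads over such shared bases were dropped or given to a partner is not stated, so the low level of Tagln is uncertain.

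Ngfr (ENSMUSG00000000120) was at 3.09, 2.89 and 3.35 CPM on normal diet, against 7.13, 6.76 and 8.15 CPM on CDAHFD, with the libraries of each diet close together. It rose by 1.24 ± 0.17 (edgeR adjusted p = 0.000119), between Lrat and Des. Schwann cells also carry this receptor. Of 6 glial markers, the defining factor Sox10 had no count in any library, and Mbp, which is also transcribed outside glia, rose from 0.824 ± 0.212 to 5.7 ± 0.645 CPM.

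To set quiescence against activation, genes were compared within each library, where the scaling of libraries cancels. The mean log2 TPM of Acta2 and Tagln minus that of Lrat, Reln, Cygb and Hgf was -2.46, -4.26 and -3.57 on normal diet, against -2.79, -2.51 and -2.40 on CDAHFD. The means differed by 0.86 but the groups overlapped, since normal diet library 1 reached the CDAHFD range. Without normal diet library 2 the difference was 0.45 and without normal diet library 1 it was 1.35. With Cygb left out of the quiescence genes it was 1.24, and with Des added to the activation genes 0.62. A score over chosen genes was given no p.

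With Acta2 as the only activation gene, a choice made after seeing that Tagln had so few counts, the score was -0.24, -1.93 and -0.36 on normal diet, against 0.05, 0.45 and 0.41 on CDAHFD. These values did not overlap, and their means differed by 1.15, or by 0.60 without normal diet library 2. Taken one by one, the log2 ratio of Acta2 to Lrat went up by 1.30 (0.82 without normal diet library 2), that to Reln by 1.51 (0.93) and that to Hgf by 1.75 (1.06), and none of the 3 ratios overlapped between diets. The ratio of Acta2 to Cygb changed by 0.03 (-0.39 without that library), with overlap. Relative to Des and Pdgfra, Acta2 overlapped as well (1.01 and 0.59, or 0.49 and 0.02 without that library). Its ratio to Ngfr, which stands outside both sets, rose by 1.15 (0.61 without that library) and did not overlap. The log2 change of Acta2 was above that of 93.2% of the genes tested. How many of all genes had an Acta2 ratio without overlap was not computed, so these ratios do not set the quiescence genes apart.

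The markers were also set against Pdgfrb, the general receptor gene. The log2 ratio of Reln TPM to Pdgfrb TPM was 1.24, 1.13 and 1.17 in the normal diet group, against -0.21, -0.23 and -0.52 with CDAHFD, and Reln thus went from above Pdgfrb to below it. Lrat went from 1.16, 0.68 and 0.92 to -0.58, -0.12 and -0.43, and Hgf from 0.43, 0.55 and 0.13 to -1.30, -1.20 and -1.60. In means these were falls of 1.50, 1.29 and 1.74, and Ngfr, Des and Pdgfra had falls of 1.15, 1.01 and 0.58 in the same ratio. Of the 9 ratios these 6 were lower on CDAHFD without overlap (two-sided exact permutation p = 0.1 each, the smallest that 3 against 3 allows, and 0.15 adjusted over the 9).

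Cygb, Acta2 and Tagln overlapped between diets relative to Pdgfrb. Their differences were -0.02 (exact p = 0.9), 0.01 (exact p = 1.0) and -0.56 (exact p = 0.8), and the normal diet spread of the Acta2 ratio was wide (SD 1.04). Both the Cygb and the Acta2 overlap came from normal diet library 2. Without it the Acta2 ratio was lower by 0.59 and the Cygb ratio by 0.20, and 8 of the 9 ratios were lower without overlap. Since Pdgfrb was itself among the strongest rises, 87.8% of all genes tested had a ratio to it that was lower without overlap and 2.58% one that was higher, so the 6 of 9 does not set the markers apart. Relative to Des the number of lower ratios was 2 of 9, and relative to Pdgfra it was 4. The share of all genes was not computed for these 2 denominators, so neither number can be read as particular to the markers.

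**Figure D3:**
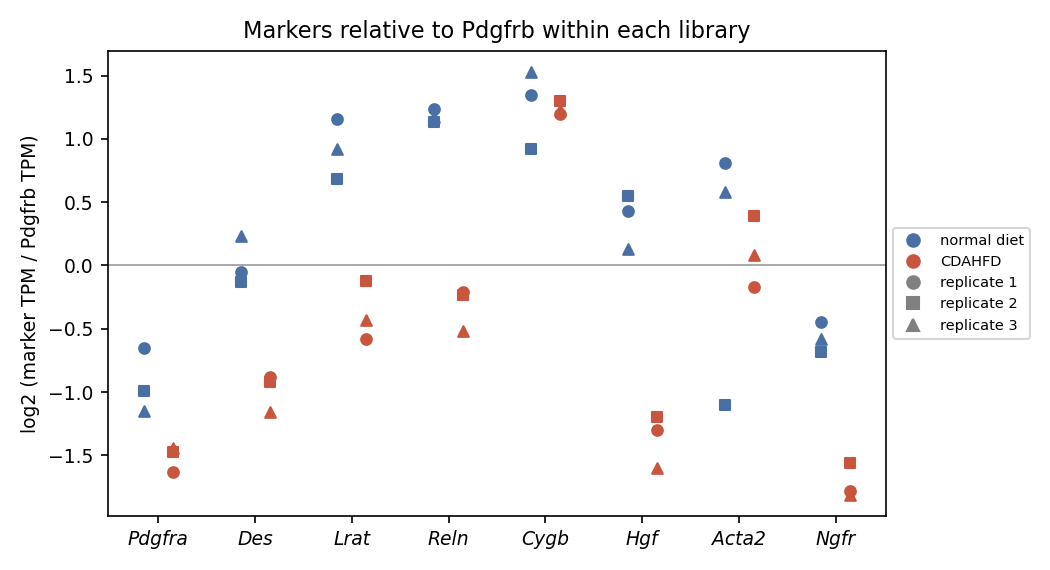
Log2 ratio of each marker's TPM to the Pdgfrb TPM of the same library (Tagln left out for its low counts), normal diet in blue and CDAHFD in red, with the replicate number as the symbol shape. Reln, Lrat and Hgf drop from above 0 to below 0, while Cygb and Acta2 overlap between diets, in both cases through normal diet library 2.

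Other stellate genes were read from lists chosen from general knowledge, but with earlier results of these data known. Of 20 further genes of resting stellate cells, all tested, 14 rose, 2 fell and 4 did not pass (median 0.91). Adamtsl2, a secreted matrix-associated protein, rose from 8.38 ± 1.22 to 59.6 ± 12.4 CPM (2.83 ± 0.17). Tcf21, a mesenchymal transcription factor, rose by 1.87 ± 0.19 and the proteoglycan gene Dcn by 1.32 ± 0.12. The pericyte regulator gene Rgs5 rose by 0.66 ± 0.10 and the collectin gene Colec11 by 0.60 ± 0.13. The 2 that fell, named after their values were seen, were Vipr1 (-0.32) and Colec10 (-0.33), and with total counts alone their changes were 0.00 and -0.00. Vipr1 also failed to pass without normal diet library 1 (adjusted p = 0.0507) and Colec10 without any 1 of 4 libraries (adjusted p up to 0.111).

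Myofibroblast genes outside the members showed larger changes. Of 20 genes 18 were tested, 17 rose and 0 fell, with a median of 3.04. Col1a1, the main fibrillar collagen chain, rose from 5.69 ± 1.53 to 189 ± 40.9 CPM (5.05 ± 0.22), Col3a1 by 3.87 ± 0.20 and the collagen cross-linking enzyme gene Lox by 4.29 ± 0.36 (4.02 to 4.99 when 1 library was left out). Timp1, the inhibitor of matrix metalloproteinases, had 4, 1 and 0 counts on normal diet, against 210, 266 and 234 on CDAHFD. Fn1, chosen here after its value was seen, did not pass (-0.06). Hepatocytes also secrete its product, fibronectin.

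Contractile smooth muscle genes had a median of 0.73. Of 15 genes 13 were tested, of which 9 rose and 0 fell. Synpo2 rose by 1.90 ± 0.36 from a low level, Tpm1, a tropomyosin, by 1.66 ± 0.12 from 27.9 ± 0.435 to 88.0 ± 12.4 CPM, Lmod1 by 1.62 ± 0.33 and the myosin light chain gene Myl9 by 0.92 ± 0.20. Myh11 rose by 0.91 ± 0.29 (edgeR adjusted p = 0.02, and 0.104 without CDAHFD library 2). Cnn1, calponin, was not tested, with 0 to 5 counts per normal diet library and 4 to 20 per CDAHFD library. Medians of lists were not compared by a test.

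**Figure D4:**
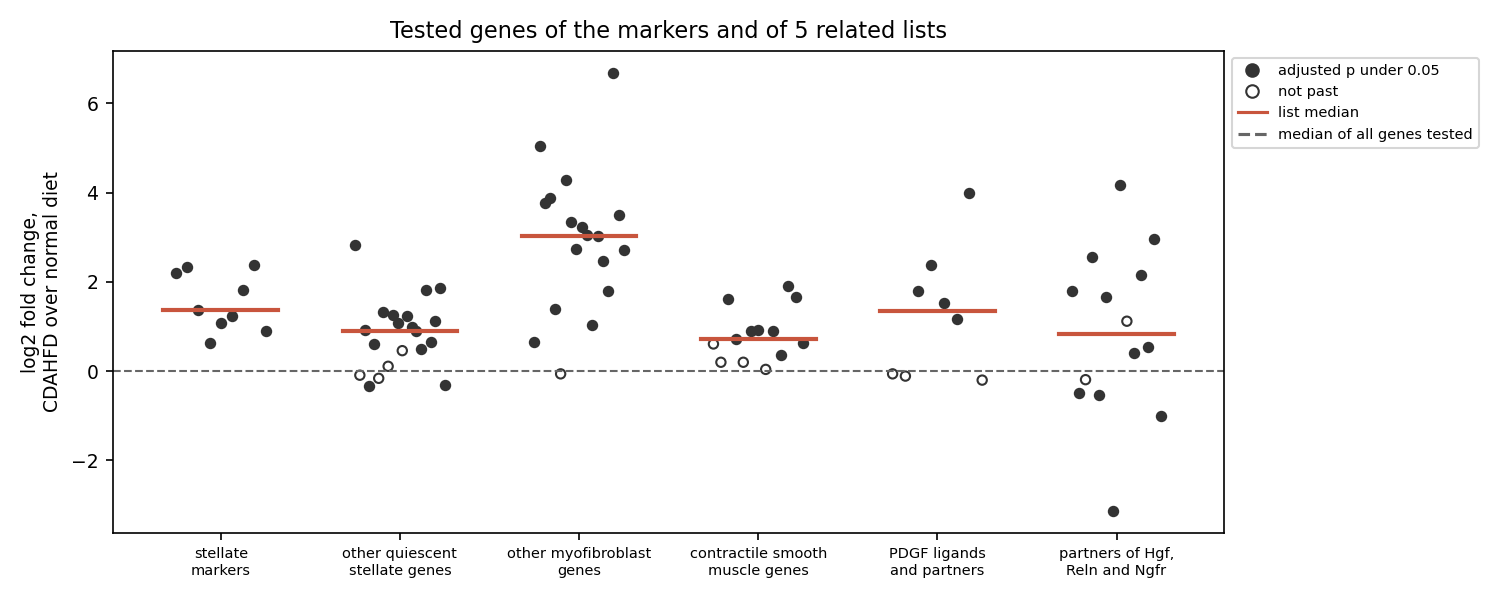
Log2 fold change of CDAHFD over normal diet for each tested gene (points) of the stellate markers and of 5 related lists, filled where edgeR's adjusted p was under 0.05, with the list median in red and the median of all genes tested dashed (0.01). The list medians are 1.36, 0.91, 3.04, 0.73, 1.35 and 0.83 from left to right, and the matrix-rich myofibroblast list lies highest.

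On the ligand side of the receptors, 5 of 8 genes of the PDGF list rose and 0 fell (median 1.35). Pdgfb, the ligand of the receptor encoded by Pdgfrb, rose from 1.53 ± 0.319 to 7.93 ± 1.24 CPM (2.37 ± 0.22). Pdgfa rose by 1.80 ± 0.18 and Pdgfc by 1.53 ± 0.21. Plat, tissue plasminogen activator, which can activate PDGF-CC, rose from 0.477 ± 0.231 to 7.71 ± 1.92 CPM. Ligand and receptor genes were therefore both higher in the same livers.

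Partners of Hgf, Reln and Ngfr went in both directions, with 8 of 14 rising, 4 falling and 2 not passing (median 0.83). Met, the HGF receptor, fell from 116 ± 11.8 to 79.9 ± 7.81 CPM (-0.54 ± 0.12), and Hgfac, a protease that activates HGF, fell by 0.48 ± 0.14. Neither passed with total counts alone (-0.22 and -0.16). St14 and Spint1, a matriptase and an inhibitor of HGF-activating proteases, rose by 2.97 ± 0.38 and 2.15 ± 0.35. Dab1, the adaptor of reelin signalling, rose by 1.80 ± 0.24.

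Ntrk2, the receptor for brain-derived neurotrophic factor, rose from 1.3 ± 0.332 to 23.4 ± 7.31 CPM (4.17 ± 0.28). Every CDAHFD library was at least 9.74 times the highest normal diet library.

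By pattern, the genes with the highest Pearson correlation of log2 CPM with Pdgfrb over the 6 libraries were Golt1b (0.9997), Npdc1 (0.9996) and Bgn (0.9995). For Lrat they were Rilpl2 (0.999), Agrn (0.9985) and Spon1 (0.9971), and for Acta2 Pdp1 (0.9985), Phgdh (0.9983) and Cdca4 (0.9982). Values this high were reached over libraries that share the diet difference, and of 11854 genes 1734 correlated above 0.95 with Pdgfrb, 1112 with Lrat and 356 with Acta2.

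The marker genes of other liver cells moved too. Total counts were 21986215 to 25628531 per library. Of 15 hepatocyte markers TMM scaling gave 11 lower and 0 higher, total counts 6 and 1, and log2(TPM + 1) 3 and 1. They summed to 195811 to 212447 TPM on normal diet and 178367 to 191154 on CDAHFD. Macrophage markers rose in 6 of 9 cases (209 to 274 against 909 to 997 TPM) and cholangiocyte markers in 5 of 5 (38.3 to 42.3 against 283 to 369 TPM, of which Spp1 made up 34.8 to 36.7 and 260 to 337 TPM and the other 4 genes 3.57 to 6.31 and 19.1 to 32 TPM). Endothelial markers rose in 3 of 9 and fell in 1 (170 to 220 against 235 to 262 TPM), with Pecam1 (0.25, edgeR adjusted p = 0.102) and Cdh5 (0.03) not passing. The 1 that fell was Prox1 (-0.55 ± 0.16, and -0.23 with total counts, not passing). It made up 33.9 to 60.3 TPM on normal diet and 37.7 to 39.8 TPM on CDAHFD, and the cells it came from were not tested. Total counts and log2(TPM + 1) each gave 6 higher and 0 lower, Pecam1 (0.57 in both) and Cdh5 (0.36 and 0.39) among them.

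Other mesenchymal cells could also carry the markers. Portal fibroblast and mesothelial markers rose in 7 of 8 tested of 11 (10.1 to 17.9 against 84.6 to 127 TPM), led by Eln (3.62 ± 0.27), Entpd2 (2.65 ± 0.23), Dpt (2.52 ± 0.28) and Mfap4 (2.34 ± 0.29), with Thy1 at 1.90 ± 0.24. The mesothelial genes, named after their values were seen, were mixed. Msln did not pass (-1.14 ± 0.53). Upk3b and Upk1b were not tested, with 71 and 8 counts in all on normal diet against 11 and 5 on CDAHFD. Wt1 rose by 3.11 ± 0.63, from 8 to 91 counts in all. Smooth muscle markers rose in 5 of 8 tested of 10 (72.0 to 97.2 against 116 to 129 TPM, mostly Cald1 and Mylk, named after their values were seen, which did not pass). With total counts or log2(TPM + 1), 7 of the 8 smooth muscle markers were higher. The part of these cells in the marker changes was not tested.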

How the data were processed

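The authors deposited raw read counts per Ensembl gene and TPM for 6 liver libraries. STAR 2.7.11a and build GRCm39 are listed in the submitters' processing notes, and per the labels' protocols a stranded mRNA kit was used. No source used here gives the counting tool, annotation, strand setting or gene lengths. Columns beginning with CD were read as CDAHFD and ND as normal diet, and 0 per-sample columns were unused. Of 56847 gene IDs 51911 matched a symbol. Genes were filtered with filterByExpr (minimum count 10, leaving 14215 of 26131 counted), scaled by TMM (factors 0.877 to 1.14) and tested with edgeR 4.0.16 in R 4.3.3 with diet as the term and Benjamini-Hochberg adjustment. The standard error is the coefficient over the root of F. Alternatives used limma 3.58.1 and DESeq2 1.42.0. The fit was tested on simulated data. Pairs of libraries of 1 diet differed by a chi-square of 19.1 to 43.4 for each degree of freedom, so no library was a copy of another.

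Members and lists were chosen with earlier results of these data known. Named genes are the members and, per list, the first 2 written and up to 4 passing genes of mean 1 CPM or more, by size of change. Promoter windows are from RefSeq (GRCm38.p6); Pdgfrb, Cygb and Tagln had no entry. Some genes of the lists are not reported here.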

Additional observations from a re-analysis of the deposited data

How the results depend on the processing

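All 9 tested markers stayed higher and past the threshold in each of 16 alternatives (other scalings, filters and tests, TPM, the replicate block and each library left out), with adjusted p up to 0.0113 for Hgf and log2 changes of 0.56 to 1.1 for Hgf, 1.8 to 2.71 for Acta2 and 2.23 to 2.87 for Pdgfrb. Scaling moved the calls over all genes, 4057 higher and 3347 lower with TMM (54.8% higher). With total counts they were 6258 and 1147 (84.5% higher, median gene shifted by 0.32), scaled to hepatocyte markers 7353 and 677 (91.6%, 0.47), with log2(TPM + 1) 6449 and 897 and with log2(TPM + 0.1) 6433 and 897 (both 87.8%, shifts of 0.28 and 0.36). In the quiescent list the 2 lower calls became 0 with total counts, the hepatocyte markers and both TPM settings, 1 with the stricter filter (1 CPM in 3 libraries) and 1 with the replicate block, and 1 to 2 with a library left out. Among partners of Hgf, Reln and Ngfr the 4 lower calls became 1 with total counts, the hepatocyte markers and both TPM settings. The ratios lower without overlap numbered 6 against Pdgfrb, 2 against Des, 4 against Pdgfra and, against Pdgfrb, 6 to 8 with a library left out. With a library left out, the Cygb to Pdgfrb difference ranged from -0.20 to 0.11, that of Acta2 from -0.59 to 0.36 and that of Tagln from -0.94 to 0.16. The Cygb difference of -0.02 turned to 0.02 and 0.11 without normal diet replicates 1 and 3, that of Acta2 (0.01) to -0.59 and -0.14 without normal diet replicate 2 and CDAHFD replicate 2, and that of Tagln (-0.56) to 0.16 without normal diet replicate 1. The cause of these shifts was not tested. For activation over quiescence the difference of means stayed above 0 in each alternative (0.40 to 1.35), but the libraries often overlapped. With log2(TPM + 0.1), normal diet replicate 1 (-2.21) was above every CDAHFD library (-2.63, -2.35 and -2.29). The same held for log2 CPM with a prior count of 2 (-3.86 against -4.28, -4.03 and -3.96). Diets did not overlap with Cygb left out, Pdgfrb added to activation, Acta2 alone, or normal diet replicate 1 left out.

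Replicate numbers are shared by the diets, but same-numbered libraries did not deviate together (correlations -0.0471, 0.0688 and 0.1176), so they were not treated as pairs. With the replicate block, 9 markers were again higher and 0 lower, among 4046 higher and 3311 lower genes. At 1 to 9 counts per library Tagln could not be tested, and the cause of its low counts was not tested.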
